A study of Mus musculus with 6 samples.

Results

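The renin-angiotensin genes of the female mouse submandibular gland (SMG) were described across 6 RNA-seq libraries, 3 labelled WT and 3 labelled DKO. The 9 genes, Agt, Ren1, Ace, Agtr1a, Agtr2, Enpep, Anpep, Atp6ap2 and Mas1, are 9 of the 43280 rows of the raw count table. Agt was chosen by its difference between the groups, which was already known from these libraries, so its values are given as a description with no test. The other 8 were chosen by their role in the same pathway with earlier results in view, and no p-value is given for any of the 9.

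The DKO mice lack function of both Hs3st3a1 and Hs3st3b1, which encode heparan sulfate 3-O-sulfotransferases. Hs3st3a1 carries a frameshift deletion in exon 1 made with zinc finger nucleases in embryos heterozygous for an Hs3st3b1 allele with a LacZ cassette, and the WT glands came from adult littermates. The alleles act in every tissue from conception, the starting Hs3st3 strains were on a C57BL/6 background, and neither the founder line nor the exact age of the sequenced animals was given in the sources used here. No treatment was applied.

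In the renin-angiotensin system, renin cuts angiotensinogen to release angiotensin I, and angiotensin-converting enzyme trims this to angiotensin II. Aminopeptidases shorten the peptide further, and cell surface receptors read angiotensin II and its fragments. The mouse SMG is a classical source of renin outside the kidney, made there in the granular ducts. Some mouse strains carry a second, near-identical renin gene, Ren2, next to Ren1 and express it strongly in the SMG, whereas C57BL/6 mice carry Ren1 alone.

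Total counts ranged from 23674258 to 29611975 per library. The targeted genes did not separate the groups. Hs3st3b1 had 173 to 261 counts in the libraries labelled WT and 120 to 255 in those labelled DKO. Hs3st3a1 had 11 to 15 against 8 to 13. These counts do not check the labels, on which every direction below rests. By quantitative PCR, the study reported that neither gene was expressed in adult DKO glands of either sex. Whether the alleles still give counted reads was not tested. The acinar gene Mucl1 did separate the groups, at 2.37 to 10.2 CPM (counts scaled to the library total) in the libraries labelled WT and 23588 to 28551 CPM in those labelled DKO. Unless stated, log2 fold changes below use median-of-ratios size factors instead, a scale that can differ from CPM. The acinar marker Spt1 was abundant in every library, making 93.0% to 99.7% of the summed CPM of 7 acinar markers. The summed level of markers of other salivary glands (Muc19, Bpifa2, Amy1 and Prb1) set 2 libraries apart. It was 6516 CPM in WT 5 and 275 CPM in DKO 1, against 8.71 to 18.6 CPM in the other 4 libraries. In DKO 1 this sum was almost all Muc19 (138 CPM) and Bpifa2 (128 CPM). Amy1, at 8.38 CPM in DKO 1, lay within the 4.41 to 9.71 CPM of those other 4 libraries. Prb1 had 4 counts in DKO 1. Because of the salivary markers, some results, among them those of Agt, Mme and Lnpep, are also given without WT 5 and DKO 1.

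Among the 9 genes, Agt was higher and Ren1 was the most uneven. Agt was 2.35-fold higher in the libraries labelled DKO, whereas Ren1 differed by up to 580-fold between libraries of the same group. Anpep, Atp6ap2, Ace, Enpep and Agtr1a overlapped between the groups, and Agtr2 and Mas1 were close to 0 in all 6 libraries. At a DESeq2 adjusted p under 0.05, 1.02% of all 18606 rows fitted were higher and 1.88% were lower, and the groups did not overlap for 20.3% of them. Of the 7 members with enough counts to be fitted, 1 was past that threshold and did not overlap, and this was Agt. Agt was picked for this contrast, so its place there was fixed by the choice, is no test of it, and nothing is read from the count.

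**Figure D1:**
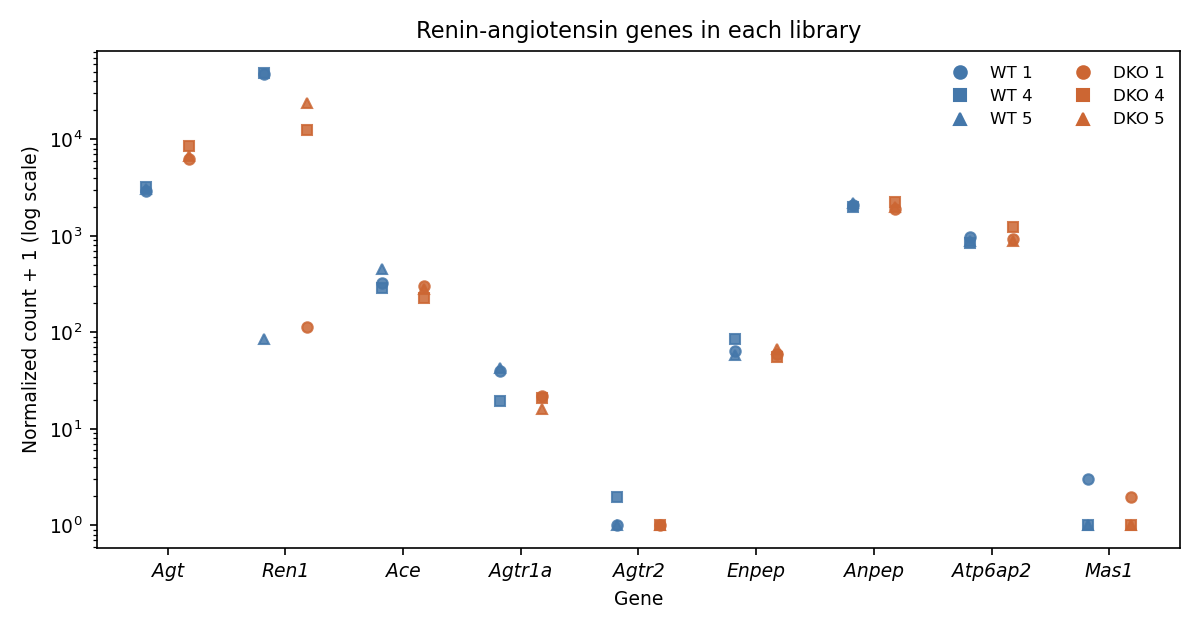
Normalized count plus 1 on a log axis for each of the 9 genes, with 1 point per library (blue, WT; orange, DKO; symbols mark the library number). The DKO points of Agt lie above its WT points, Ren1 splits within both groups, and Agtr2 and Mas1 lie at the floor.

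Agt encodes angiotensinogen, the secreted precursor of every angiotensin peptide. In GRCm38 it spans chromosome 8 from 124556534 to 124569706 on the minus strand, and no other annotated gene overlaps it. The peptide itself is encoded in exon 2 of 5, shown here for reference. The counts are per gene symbol and do not show which transcript was counted. The capitals mark the 30 bases that encode the 10 residues of angiotensin I, within chr8:124564435-124564494 on the minus strand (GENCODE M21 transcript Agt-201).

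Agt, angiotensin I codons: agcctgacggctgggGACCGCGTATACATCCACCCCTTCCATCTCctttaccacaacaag

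The 250 bases before the RefSeq start of Agt are given because Agt is the member chosen for its difference between the groups. They cover chr8:124569707-124569956 on the minus strand of GRCm38.p6, written 5′ to 3′ along the gene. The capitals mark TATAAA, the letters of a TATA box, whose first base lies 30 bases before the start.

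Agt, upstream: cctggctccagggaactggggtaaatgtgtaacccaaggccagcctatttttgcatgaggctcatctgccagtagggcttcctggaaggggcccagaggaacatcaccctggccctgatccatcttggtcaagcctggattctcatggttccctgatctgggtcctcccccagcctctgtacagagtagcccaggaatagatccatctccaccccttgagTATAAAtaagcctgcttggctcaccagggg

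Over the 250 bases before the start, TATAAA was found on either strand in 12.4% of the 32851 RefSeq promoters, and it was found 1 time in that of Agt. No data here show binding to these letters.

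The raw counts of Agt were 2950 (WT 1), 3300 (WT 4) and 3391 (WT 5) in the group labelled WT. They were 6643 (DKO 1), 8240 (DKO 4) and 5773 (DKO 5) in the group labelled DKO. After division by the size factors, which correct for depth, these became 2919, 3228 and 3037 normalized counts against 6303, 8613 and 6656. All 3 libraries labelled DKO were above all 3 labelled WT, and the lowest of them was 1.95 times the highest WT library. The mean rose from 3062 ± 156 to 7190 ± 1244 normalized counts (SD, n = 3), a log2 fold change of 1.23 with an SE of 0.13, or 2.35-fold with a 95% interval from 1.98 to 2.79. As a share of all counts, Agt took 0.0122% to 0.0125% in the libraries labelled WT and 0.0223% to 0.0278% in those labelled DKO. The WT libraries were almost level, and most of the spread came from DKO 4.

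The difference in Agt did not rest on a single library. With any 1 library left out its log2 fold change ran from 1.08 (without DKO 4) to 1.32 (without DKO 1), and without both WT 5 and DKO 1 it was 1.31. With total counts as size factors it was 0.99, in a fit in which the median of all rows moved to -0.23.

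Agt is named by the study as an acinar gene that was higher in female DKO glands, by RNA-seq and by quantitative PCR. Whether the PCR used other glands was not given in the sources used here. Markers of acinar cells are given beside Agt. All 7 acinar markers had a positive log2 fold change, with a median of 0.54, and 3 passed the threshold (1 under edgeR and under limma-voom, and 2 with total counts as size factors, where 5 were positive; 6 were positive without WT 1). Their summed level was 350262 to 384512 CPM in the libraries labelled WT and 395728 to 426342 CPM in those labelled DKO. Without Mucl1 the groups overlapped in this sum, at 350258 to 384510 CPM in WT and 372140 to 397791 CPM in DKO. That sum is almost only Spt1, for example 354226 of 355419 CPM in WT 1. Gene by gene, normalized counts did not overlap for 5 of the 7 (Aqp5, Lpo, Agr2, Bhlha15 and Mucl1), against 20.3% of all rows, and overlapped for Ceacam1 and Spt1. The study named 3 of the 7 (Aqp5, Mucl1 and Agr2) from these same libraries, so the list is not independent evidence of its direction. The 8 granular duct markers were all lower and all 8 passed the threshold, with a median of -0.93 (2 of 8 passed under edgeR and under limma-voom). In a whole gland, more acinar cells and more Agt RNA per acinar cell cannot be told apart. Liver and fat are known major sources of angiotensinogen. The 5 hepatocyte markers (Alb, Apoa1, Ttr, Fgb and Cyp2e1) summed to 0.297 to 1.28 CPM in the libraries labelled WT and 0.106 to 0.338 CPM in those labelled DKO, with Alb at 1 to 4 counts per library. The 5 adipocyte markers (Adipoq, Plin1, Lep, Cfd and Retn) summed to 0.0371 to 0.676 CPM in WT and at most 0.283 CPM in DKO.

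Of 27 rows fitted within 1 Mb of Agt, 0 passed the threshold in the DESeq2 fit. Among the 18 that averaged 50 normalized counts or more, the highest ratio between libraries of 1 group was 1.40 (Ttc13, libraries labelled DKO).

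The rows whose profile over the 6 libraries was most like that of Agt were sought among the 11489 rows that averaged 50 normalized counts or more. Likeness was the root-mean-square difference in log2(normalized count + 1), each gene centred on its own mean. The nearest were Stk32c, a serine/threonine kinase (0.16), Agr2, a protein disulfide isomerase of secretory cells (0.17), and Slc3a2, the heavy chain shared by several amino acid transporters (0.19). Syt6, a synaptotagmin (0.20), Scube1, a secreted and cell surface protein (0.22), Aldh18a1, an enzyme of proline synthesis (0.22), Scgb1b26-ps, a secretoglobin pseudogene (0.23), and Slc1a4, a neutral amino acid transporter (0.24), followed. Stk32c, for example, gave 32.7, 35.2 and 39.4 normalized counts for WT 1, 4 and 5 against 77.8, 78.4 and 74.9 for DKO 1, 4 and 5. Slc3a2 had 1101, 1221 and 1232 against 1777, 3667 and 2344, and DKO 4 was its highest library, as it was for Agt. Agr2 is also 1 of the 7 acinar markers. Since Agt separates the groups, rows near to it separate them too.

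**Figure D2:**
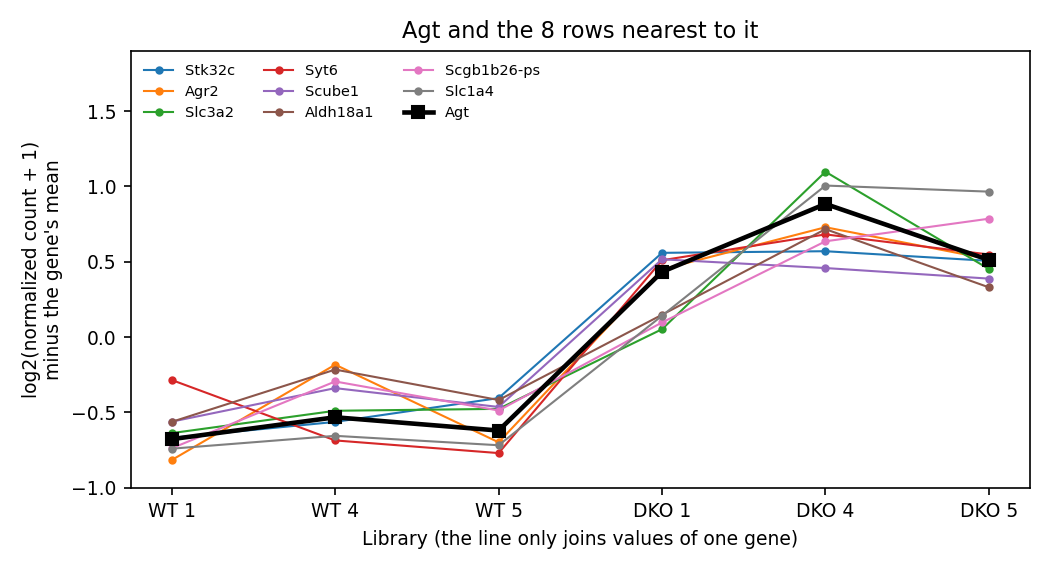
log2(normalized count + 1) minus each gene's own mean, for Agt (black squares) and the 8 rows nearest to it, in the 6 libraries. All 9 genes lie below their mean in the 3 libraries labelled WT and above it in the 3 labelled DKO.

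Ren1 encodes renin, the aspartyl protease that cuts angiotensinogen. In GRCm38 it spans chromosome 1 from 133350510 to 133360325 on the plus strand, and no other annotated gene overlaps it. A row for Ren2 was not analysed here. The renin genes are near-identical, so reads of one can be counted for the other, and a value for Ren1 is a value for reads that match Ren1. The 30 bases around the TATA box of the C57BL/6J reference, chr1:133350633-133350662 on the plus strand of GRCm38.p6, are printed for reference. They do not show which gene copy the counted reads came from. TATAAA is in capitals and begins 29 bases before the RefSeq start. The GENCODE gene span given above opens further upstream and includes these bases, so they are upstream of the RefSeq start only.

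Ren1, upstream: atacatggtgtgTATAAAagaaggctcagg

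Ren1 gave 47665 counts in WT 1 and 49381 in WT 4, but 93 in WT 5. It gave 11964 counts in DKO 4 and 20443 in DKO 5, but 119 in DKO 1. Each group therefore held 1 library with few Ren1 counts and 2 with many. In normalized counts the highest WT library (WT 4, 48304) was 580-fold above the lowest (WT 5, 83.3), and the highest DKO library (DKO 5, 23570) was 209-fold above the lowest (DKO 1, 113). Among the libraries with high counts, both labelled DKO were below both labelled WT, at 12505 and 23570 against 47169 and 48304 normalized counts.

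This spread left the comparison of the groups without precision for Ren1. Its mean was 31852 ± 27518 normalized counts in the libraries labelled WT and 12063 ± 11735 in those labelled DKO (SD, n = 3). The log2 fold change was -1.40 with an SE of 2.03, and the 95% interval of the fold ran from 0.0240 to 5.98. With any 1 library left out it ran from -2.33 (without DKO 5) to -0.82 (without DKO 1). The log2 fold change stayed within these limits in all 17 alternatives, which include the fit without both WT 5 and DKO 1. A difference between the groups in Ren1 was not detectable with this spread.

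**Figure D3:**
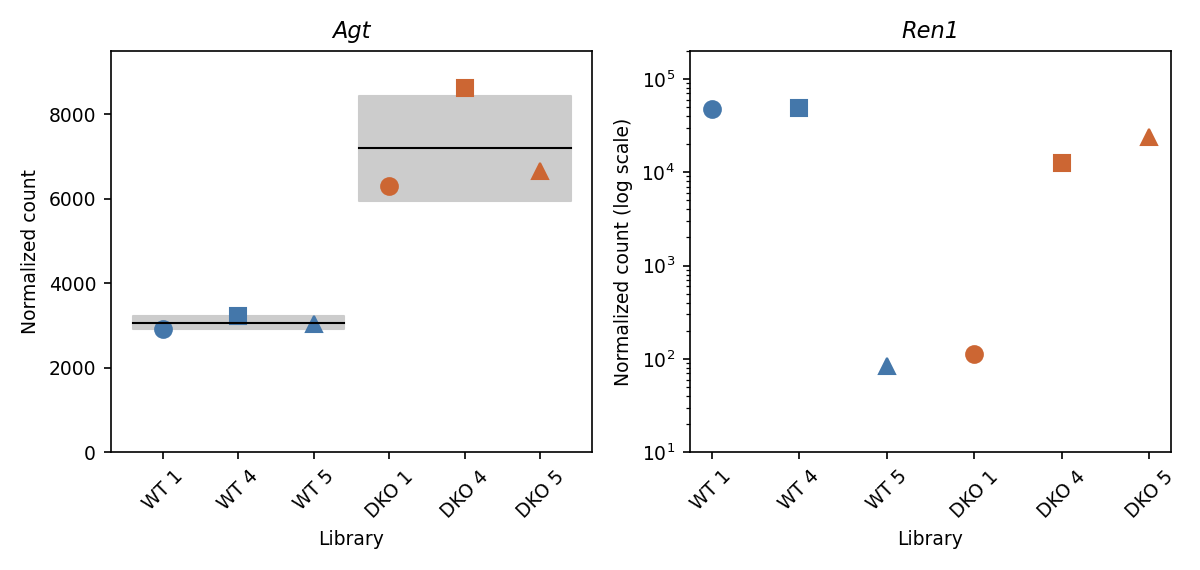
Normalized counts of Agt (left, linear axis from 0, with the mean as a line and ± 1 SD as a grey band, n = 3) and of Ren1 (right, log axis) in each library. Agt separates by group, at 2919 to 3228 against 6303 to 8613, whereas Ren1 is low in WT 5 and DKO 1 and high in the other 4 libraries.

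The spread of Ren1 was rare among all rows. The pooled SD of log2 values within groups was 4.77 for Ren1, the rank of 6 from the largest among 11489 rows, against 0.18 for Agt, 0.28 for Ace, 0.23 for Enpep, 0.10 for Anpep and 0.20 for Atp6ap2. In 8 of these rows the highest library was at least 50-fold above the lowest in both groups, counting a lowest library as at least 3 counts. They were picked after seeing their values. BC048546, Dcpp2, Dcpp3 and the sublingual mucin gene Muc19 were high in WT 5 and, less so, in DKO 1. Gcnt1, Rprl3 and Gm11942 followed other orders of the libraries. Gcnt1, which encodes a glycosyltransferase of O-glycan cores, had 7020 normalized counts in WT 4, 9223 in DKO 1 and 8820 in DKO 5, against 20.9 to 94.0 in the other 3 libraries. Ren1 was the only one of the 8 that was high in WT 1, WT 4, DKO 4 and DKO 5 and low in WT 5 and DKO 1.

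The libraries low in Ren1 were those with the highest summed level of other salivary gland markers, 6516 CPM in WT 5 and 275 CPM in DKO 1. In DKO 1 only Muc19 and Bpifa2 made up almost all of that sum. The part of these markers in the result was not tested. The granular duct markers did not follow Ren1. They summed to 5851, 4987 and 5988 CPM in WT 1, 4 and 5, so the library with the fewest Ren1 counts had the highest duct marker sum of its group. In DKO 1, 4 and 5 they summed to 2841, 2233 and 3107 CPM.

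Genes next to Ren1 did not share its spread. Of 28 rows fitted within 1 Mb, 19 averaged 50 normalized counts or more, and among these the highest ratio between libraries of a group was 2.82 in WT (Adora1, 839 kb away) and 1.81 in DKO (Nfasc, 609 kb away). In the DESeq2 fit 0 of the 28 passed the threshold.

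**Figure D4:**
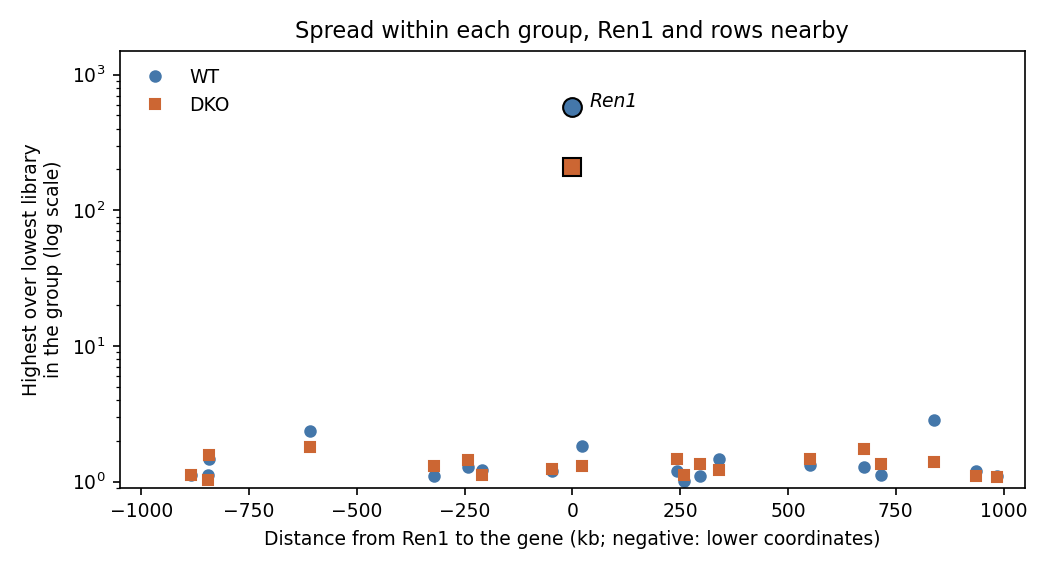
Ratio of the highest to the lowest library within the group labelled WT (blue circles) and DKO (orange squares), on a log axis, against the distance from Ren1 in kb, for Ren1 (outlined) and the 19 rows nearby with enough counts. Ren1 stands at 580 and 209 and the nearby rows stay at or below 2.82.

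The 3 rows with the profile most like that of Ren1 were processed pseudogenes on other chromosomes. The measure was that used for Agt, and the rows were chosen after the values of Ren1 were seen. Hist1h2al (chromosome 13) had 71, 72 and 1 counts in WT 1, 4 and 5 and 1, 82 and 86 in DKO 1, 4 and 5. Glns-ps1 (chromosome 11) had 136, 117 and 2 against 3, 68 and 37. Gm8730 (chromosome 8) had 301, 341 and 4 against 6, 18 and 13. Each was low in the same pair of libraries as Ren1. Their distances from Ren1 were 1.53, 1.73 and 2.38 on the log2 scale, far more than those of the rows near Agt. Protein-coding rows followed, 4833423E24Rik (3.11), Zfp951 (3.25), Mndal (3.26), H2-T24 (3.43) and Metap1d (3.48). In WT 5 and DKO 1, 4833423E24Rik had 230 and 350 normalized counts, against 443 to 1758 elsewhere. Metap1d had 207 and 206 there, against 282 to 506 elsewhere. Zfp951, Mndal and H2-T24 did not have their lowest values in this pair. Counts of processed pseudogenes are uncertain where parent genes share their sequence.

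The balance of substrate and enzyme transcripts differed between libraries by the spread of Ren1. Per kb of exon, Ren1 was 18.4, 17.1 and 0.0313 times the level of Agt in WT 1, 4 and 5, and 0.0204, 1.66 and 4.04 times in DKO 1, 4 and 5. Renin reads were thus in excess of angiotensinogen reads in 4 libraries and far fewer in the other 2, with both kinds in each group.

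Ordered by CPM per kb of exon in the libraries labelled WT, Ren1 came highest at 774 ± 671, ahead of Agt at 65.4 ± 0.627, Anpep at 20.5 ± 2.10, Atp6ap2 at 14.0 ± 1.73 and Ace at 2.72 ± 0.729 (SD, n = 3). Enpep at 0.580 ± 0.0908 and Agtr1a at 0.487 ± 0.203 overlapped, and Ren1 spanned the levels from within the range of Ace to above Agt. Mas1 and Agtr2 came last, with at most 2 counts in any library, and also overlapped. The other neighbours in this order did not overlap. In the libraries labelled DKO the means kept the same order, with Ren1 at 241 ± 237, Agt at 130 ± 15.3, Anpep at 16.9 ± 0.697, Atp6ap2 at 13.3 ± 1.96, Ace at 1.75 ± 0.364, Enpep at 0.439 ± 0.0570 and Agtr1a at 0.230 ± 0.0494 CPM per kb.

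Ace, on chromosome 11 from 105967945 to 105989964, encodes the membrane dipeptidase that forms angiotensin II and also degrades bradykinin. It gave 325, 285 and 451 normalized counts for WT 1, 4 and 5 against 299, 226 and 277 for DKO 1, 4 and 5. The groups overlapped, since DKO 1 was above WT 4. The log2 fold change was -0.41 with an SE of 0.20, or 0.755-fold with a 95% interval from 0.576 to 0.989. It was -0.19 without WT 5, the library with the most Ace counts. An antisense gene that overlaps it, Gm11651, had 0 counts. Ace lies 41.4 Mb from Hs3st3a1 on the same chromosome. In many tissues Ace is an endothelial enzyme. The 5 endothelial markers had a median log2 fold change of 0.28, none of them passing the threshold in the DESeq2 fit (2 had an unadjusted p under 0.05), and they summed to 58.3 to 63.7 CPM in WT and 59.7 to 68.3 CPM in DKO.

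Anpep (chromosome 7) and Enpep (chromosome 3) encode aminopeptidases N and A, which trim residues from the amino end of angiotensins. Anpep was nearly level, with 2093, 1975 and 2211 normalized counts for WT 1, 4 and 5 against 1907, 2221 and 1981 for DKO 1, 4 and 5. Its log2 fold change was -0.04 with an SE of 0.10, and the 95% interval of the fold was 0.846 to 1.12. Enpep, at 62.3, 84.1 and 57.3 against 58.8, 54.4 and 66.9 normalized counts, overlapped in part, with DKO 4 below the WT libraries and WT 4 above the DKO libraries. Its fold was 0.883 with a 95% interval from 0.596 to 1.31, so a moderate difference could not be told from none at this depth.

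Atp6ap2 (chromosome X) encodes the (pro)renin receptor, which is also an accessory subunit of the vacuolar proton pump. It gave 968, 851 and 892 normalized counts for WT 1, 4 and 5 against 929, 1240 and 888 for DKO 1, 4 and 5. Only DKO 4 lay above the WT libraries. The fold was 1.13 with a 95% interval from 0.928 to 1.37, and without DKO 4 the log2 fold change was 0.01. With total counts as size factors it was -0.07, so its direction depended on the scaling.

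Agtr1a (chromosome 13) encodes the main receptor of angiotensin II, through which the peptide constricts vessels. It was rare, with 39, 19 and 47 counts in WT 1, 4 and 5 and 22, 19 and 13 in DKO 1, 4 and 5. WT 4 fell among the libraries labelled DKO, so the groups overlapped. The fold was 0.562 with a 95% interval from 0.296 to 1.07. Markers of mural cells, which are known to express this receptor, summed to 69.4 to 73.4 CPM in WT and 54.7 to 63.0 CPM in DKO with a median log2 fold change of -0.13. CPM uses library totals, a scaling under which the median log2 fold change of all rows was -0.23. In normalized counts the groups overlapped for each of the 4 mural markers. Markers of fibroblasts, which can also express it, summed to 254 to 359 CPM in WT and 158 to 256 CPM in DKO, with 2 of 4 past the threshold and lower (0 of 4 under edgeR, under limma-voom and without WT 1, WT 5, DKO 4 or DKO 5). The part of either cell type in the Agtr1a values was not tested. Agtr2 (chromosome X), the second angiotensin II receptor, had 1 count in all, in WT 4. Mas1 (chromosome 17), the receptor of angiotensin-(1-7), had 3 counts in all, 2 in WT 1 and 1 in DKO 1. A library with 0 counts allows up to 3, which is 0.127 CPM in the shallowest library, and this limit covers counting error only. Any difference in Agtr2 or Mas1 was not detectable at this depth. Mas1 overlaps the antisense transcript Airn, which had 353 to 546 counts per library, and reads in their overlap cannot be assigned by strand in unstranded libraries.

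Other genes of the pathway were taken from a list of 25 chosen by role. Of these, 24 had a row analysed here, 16 were fitted, 0 were higher and 2 were lower at a DESeq2 adjusted p under 0.05, with a median log2 fold change of 0.04 against 0.00 over all rows. The groups did not overlap for 6 of the 16. Over all rows fitted, 1.02% were higher, 1.88% were lower and 20.3% did not overlap. The lower genes were Mme and Lnpep. Mme encodes neprilysin, a peptidase that makes angiotensin-(1-7) and is also known as a marker of myoepithelial cells. It gave 1906, 1740 and 1587 normalized counts for WT 1, 4 and 5 against 1319, 1325 and 1262 for DKO 1, 4 and 5 (log2 fold change -0.42, SE 0.11, DESeq2 adjusted p = 0.00541). All libraries labelled DKO were below all labelled WT. The 5 myoepithelial markers were all lower too, with a median of -0.74 and 5 of 5 past the threshold (0 of 5 under edgeR and under limma-voom), and their part in the Mme value was not tested. Lnpep, the insulin-regulated aminopeptidase that binds angiotensin IV, fell from 989 ± 27.3 to 751 ± 76.1 normalized counts (SD, n = 3; log2 fold change -0.40, SE 0.12, DESeq2 adjusted p = 0.0264). Mme lost its call without WT 1 (DESeq2 adjusted p = 0.109), without DKO 5 (0.0836), without both WT 5 and DKO 1 (0.0543), under edgeR (0.147) and under limma-voom (0.173). Lnpep was no longer called without WT 1 (DESeq2 adjusted p = 0.155), WT 4 (0.0674), WT 5 (0.256), DKO 4 (0.107) or DKO 5 (0.186), without both WT 5 and DKO 1 (0.164), and under edgeR (0.151) and limma-voom (0.198).

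The other peptidases of the list did not pass the threshold. Prcp, which cuts the last residue from angiotensin II, gave 116, 88.0 and 117 normalized counts for WT 1, 4 and 5 against 75.0, 65.8 and 58.8 for DKO 1, 4 and 5, with no overlap (log2 fold change -0.68, SE 0.25, DESeq2 adjusted p = 0.12). Thop1, an oligopeptidase that makes angiotensin-(1-7), also did not overlap (log2 fold change 0.33 with an SE of 0.15, DESeq2 adjusted p = 0.26). Nln, Prep, Dpp3, Rnpep and Ctsa had log2 fold changes from 0.07 to 0.22, with standard errors from 0.12 to 0.16. With total counts as size factors these 5 values ran from -0.17 to -0.02, so their sign depended on the scaling. Klk1, the tissue kallikrein that releases kinins, had the highest level per kb of exon in the list and gave 163159 ± 30866 against 197528 ± 32780 normalized counts (SD, n = 3; DESeq2 adjusted p = 0.424). It is one of a family of similar genes, so its own value is uncertain.

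The mast cell peptidases were scarce. Cma1, a chymase that can form angiotensin II without Ace, had 12, 6 and 11 counts in WT 1, 4 and 5 and 7, 1 and 0 in DKO 1, 4 and 5, and Cpa3 had 11, 5 and 16 against 9, 3 and 2. Neither passed the threshold (DESeq2 adjusted p = 0.494 and 0.685). The other 5 mast cell markers summed to 0.556 to 1.31 CPM in WT and 0.116 to 0.495 CPM in DKO, and their part in these values was not tested. Among receptor partners, Agtrap, which binds the type 1 receptor, Arap1 and the proton pump subunit gene Atp6ap1 had log2 fold changes of -0.03, 0.01 and 0.12, and none passed the threshold in the DESeq2 fit (adjusted p = 0.969, 0.989 and 0.764). The kinin precursors Kng1 and Kng2 had 1 count each in all and the bradykinin receptor gene Bdkrb2 had 7, while Agtr1b, Cma2, Ctsg, Mrgprd and Bdkrb1 had 0 counts in all 6 libraries. Differences in these 8 genes were not detectable at this depth.

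**Figure D5:**
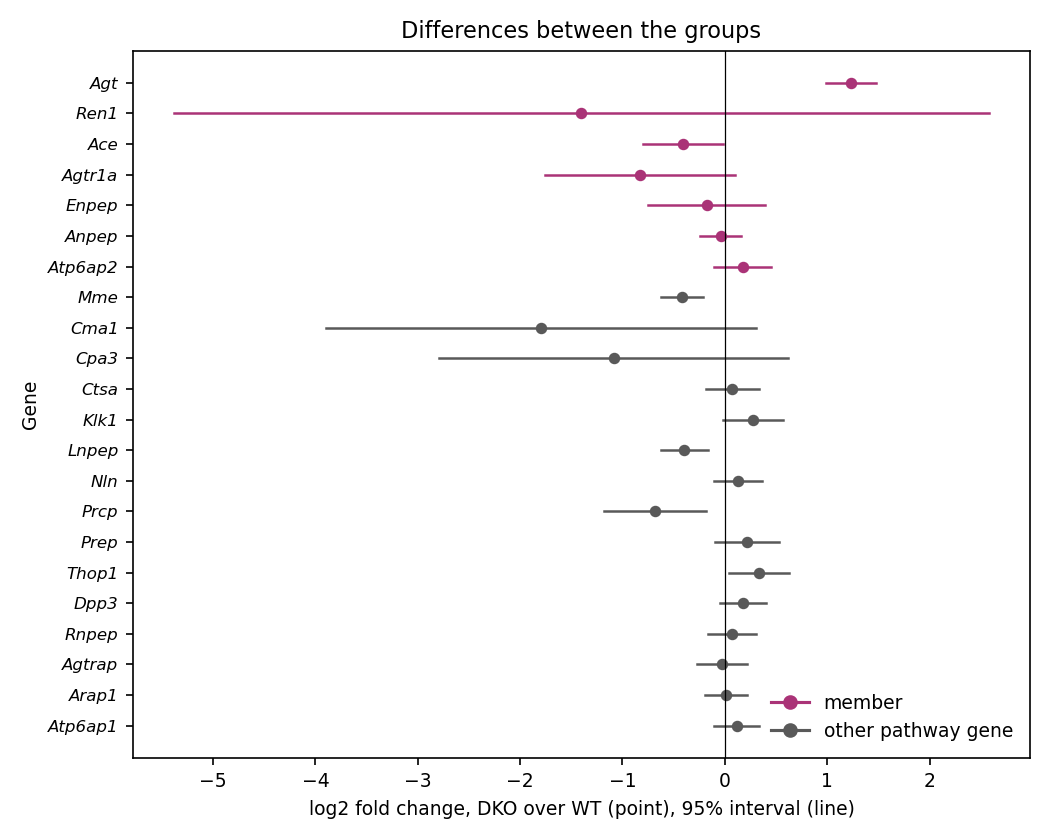
log2 fold change of DKO over WT (point) with its 95% interval (line) for the 7 members fitted (purple) and other pathway genes fitted (grey). Agt lies at 1.23, the interval of Ren1 spans from -5.38 to 2.58, and Mme and Lnpep lie below 0 at -0.42 and -0.40.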

How the data were processed

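RNA of whole submandibular glands from 3 WT and 3 DKO female mice was sequenced from unstranded Nextera XT libraries. The submitters' processing notes list STAR 2.5.2a, DESeq2, edgeR and limma; the counting tool and annotation were not given in the sources used here. The authors deposited a table of raw counts, 43280 rows keyed by gene symbol, which was tested here, and a filtered table of 17527 rows with the same counts, used as an alternative. Their TMM-scaled CPM table, derived from those counts, was not used.

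The 18606 rows whose counts summed to 10 or more were fitted with DESeq2 1.42.0 in R 4.3.3 (Wald test, two-sided, median-of-ratios size factors from 0.867 to 1.12, unshrunken log2 fold changes, default Cook's and independent filters) and Benjamini-Hochberg adjustment over all rows. An adjusted p was not given for 2556 rows. The study's methods name this test. Intervals (95%) are normal intervals from the SE. Libraries of a group differed by more than sampling noise (chi-square per degree of freedom 16.8 to 43.4), so each was 1 replicate, and p-values measure only the spread between these samples, which may be technical where glands shared an animal or preparation. A permutation test of a single value in 3 against 3 cannot give a two-sided p below 0.1, so none was made. Alternatives used edgeR 4.0.16 (quasi-likelihood), limma 3.58.1 (voom), other size factors and filters, a replicate block and leaving out each library in turn; leaving out WT 5 and DKO 1 together was added after seeing the data. The scripts were tested on simulated data.

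The 9 members, the wider pathway list and the markers were chosen with earlier results of these data known. Genes named were the members, the wider list, the targeted genes and the 8 rows nearest to Agt; others were chosen after their values were seen. Coordinates and exon lengths are those of GENCODE M21 (GRCm38) for the same symbol, which 91.2% of row names matched; the build behind the counts is listed by the submitters as GRCm38 or mm10. Upstream sequences are from RefSeq (GRCm38.p6), which held one for 8 of the 9 members. Values of 1 gene of the wider list and of 1 marker list are not reported here.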

Additional observations from a re-analysis of the deposited data

How the results depend on the processing

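The log2 fold change of Agt moved by less than the spread between replicates in 16 of 17 alternatives, was 0.99 with total counts as size factors, and ran from 1.08 to 1.32 with 1 library left out. The number of rows called was 539 and depended on the fit, with 10 under edgeR, 7 under limma-voom, 1472 with total counts as size factors (62 higher and 1410 lower, against 189 and 350), 343 with the replicate block, 183 without WT 5 and DKO 1, and 149 to 817 with 1 library left out. Of the wider list, 2 genes were called, against 0 under edgeR and under limma-voom (4 and 5 had an unadjusted p under 0.05), 1 with the replicate block (Mme), 0 without WT 5 and DKO 1 (2 unadjusted), and 0 to 2 with 1 library left out (0 without WT 1 or DKO 5). Fits that left out libraries used fewer samples; the cause of the other changes was not tested. With the replicate block Lnpep lost its call (adjusted p = 0.166). Libraries with the same number did not deviate together, with correlations of -0.13, -0.02 and -0.26, so the numbers were not taken as pairs. Between a WT and a DKO library of unlike number, correlations ran from -0.39 (WT 4 and DKO 1) to 0.45 (WT 5 and DKO 1). WT 4 and DKO 5 were at 0.44. What these libraries shared was not tested. With total counts Prcp also passed the threshold (adjusted p = 0.0202). The log2 fold change of Enpep was 0.00 without WT 4, and that of Anpep changed sign in 3 of 17 alternatives. Depth limits Agtr1a, Cma1 and Cpa3, with at most 47 counts per library.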
